A study of Mus musculus with 4 samples.

Results

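Mitochondrial ribosomal proteins were taken as all genes whose symbol begins with Mrpl (large subunit) or Mrps (small subunit) and a digit, and 76 of the 19505 genes measured met this rule, 48 of the large and 28 of the small subunit. Each had 1 feature on the array, so no choice between features was needed. The cells were CD8+ T cells of C57/BL6 mice, taken from lymph nodes and spleens and activated for 3 days with beads that carry antibodies to CD3 and CD28, in medium with interleukin 2. In 2 cultures 25 µM spermidine, a polyamine, was added, and 2 control cultures were left untreated. Per the labels the 2 arrays of a group are biological replicates, but no animal or culture is named, so the p-values rest on the spread among these 4 samples, which may in part be technical. The comparison asks how expression in activated CD8+ T cells differs with spermidine.

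The mitochondrial ribosome translates the few proteins that mitochondrial DNA encodes, all of them subunits of the respiratory chain and of ATP synthase. Its RNAs come from mitochondrial DNA, while its proteins are encoded in the nucleus, made in the cytosol and imported. The small subunit holds the messenger RNA and reads its codons, and the large subunit joins the amino acids and releases the chain at the inner membrane. T cells enlarge their mitochondria when they are activated, and the assembly of new respiratory complexes needs this ribosome. The places of proteins named here come from structures of pig and human mitochondrial ribosomes.

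The promoters of the 3 homologues of bacterial protein S18, together with those of Mrpl18 and Mrpl17, are shown because these members differed from each other in their signals, as given further on. The windows run 5′ to 3′ along the gene's strand from 250 bases before to 50 bases after the start, and come from RefSeq (GRCm38.p6). Capitals mark matches to 1 of 3 motifs on either strand: CCGGAAGT, bound by ETS factors such as GABP; GCGCATGC, which reads GCATGCGC on the other strand, bound by NRF1; and AAGATGGC, bound by YY1. These factors are known regulators of nuclear genes for mitochondria. The windows lie at chr17:46110754-46111053 on the plus strand for Mrps18a, chr17:35916391-35916690 on the minus strand for Mrps18b, chr5:100798509-100798808 on the plus strand for Mrps18c, chr17:12916042-12916341 on the minus strand for Mrpl18 and chr7:105811038-105811337 on the minus strand for Mrpl17.
Mrps18a: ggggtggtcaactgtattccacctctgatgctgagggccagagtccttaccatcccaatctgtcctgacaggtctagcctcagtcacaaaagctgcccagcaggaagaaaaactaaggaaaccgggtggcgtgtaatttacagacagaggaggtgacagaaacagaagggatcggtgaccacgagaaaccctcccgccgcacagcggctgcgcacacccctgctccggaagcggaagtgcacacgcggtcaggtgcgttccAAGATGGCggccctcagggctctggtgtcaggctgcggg
Mrps18b: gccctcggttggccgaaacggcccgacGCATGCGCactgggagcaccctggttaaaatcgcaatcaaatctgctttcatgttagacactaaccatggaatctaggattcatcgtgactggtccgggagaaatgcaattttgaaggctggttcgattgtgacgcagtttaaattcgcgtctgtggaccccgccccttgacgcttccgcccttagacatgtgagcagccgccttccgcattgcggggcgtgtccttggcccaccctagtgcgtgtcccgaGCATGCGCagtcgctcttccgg
Mrps18c: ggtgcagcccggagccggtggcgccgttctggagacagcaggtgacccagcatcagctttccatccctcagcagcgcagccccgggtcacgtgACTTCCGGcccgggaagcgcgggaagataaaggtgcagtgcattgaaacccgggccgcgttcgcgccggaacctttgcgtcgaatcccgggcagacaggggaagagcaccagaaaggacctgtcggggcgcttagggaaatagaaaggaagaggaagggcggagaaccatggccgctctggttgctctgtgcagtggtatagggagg
Mrpl18: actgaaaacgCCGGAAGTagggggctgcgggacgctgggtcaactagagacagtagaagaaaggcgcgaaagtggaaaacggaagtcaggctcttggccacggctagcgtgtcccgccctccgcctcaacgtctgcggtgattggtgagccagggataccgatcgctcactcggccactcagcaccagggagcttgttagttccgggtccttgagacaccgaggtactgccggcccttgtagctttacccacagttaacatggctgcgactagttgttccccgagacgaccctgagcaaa
Mrpl17: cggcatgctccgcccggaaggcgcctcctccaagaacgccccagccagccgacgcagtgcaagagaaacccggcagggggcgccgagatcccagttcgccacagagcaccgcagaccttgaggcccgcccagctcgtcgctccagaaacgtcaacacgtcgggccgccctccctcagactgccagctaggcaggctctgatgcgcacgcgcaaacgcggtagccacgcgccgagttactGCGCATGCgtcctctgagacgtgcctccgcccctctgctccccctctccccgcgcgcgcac
Mrps18a held the YY1 motif, Mrps18b the NRF1 motif at 2 places, Mrps18c and Mrpl18 the ETS motif, and Mrpl17 the NRF1 motif.

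Signals are log2 values, and a difference is the mean of the spermidine arrays minus the mean of the control arrays. Array medians over gene features lay between 5.13 and 5.25, and correlations between arrays between 0.989 and 0.994. The background level used here is 6.35, the 95th percentile (mean of the arrays) of features with probes absent from the genome. Markers of CD8+ T cells were bright on every array (Cd8a 16.58 and 16.57 with spermidine, 16.66 and 16.68 in control), and over the 7 measured ones the list mean was 15.45 and 15.54 with spermidine and 15.66 and 15.67 in control, with 4 of 7 lower without overlap. The 5 measured B cell markers had higher means with spermidine (3 of 5 without overlap of the groups), with list means of 6.39 and 6.13 in the spermidine arrays against 5.94 and 5.83 in the control arrays. Of these, Ms4a1, Pax5 and Blk lay below background in both groups, and Cd79a had 7.40 and 7.15 with spermidine and 6.44 and 6.50 in control. Over all genes, 18.6% were lower and 18.3% higher with spermidine without overlap. The 5 macrophage and monocyte markers averaged 3.56 and 3.63 with spermidine and 3.50 and 3.54 in control, all below background. The 2 CD4+ T cell markers averaged 6.95 and 7.32 with spermidine and 6.71 and 6.86 in control, but differed in direction. Cd4 had 6.59 and 7.24 with spermidine and 7.11 and 6.84 in control, which overlapped. Zbtb7b had 7.32 and 7.41 with spermidine and 6.32 and 6.88 in control, without overlap. The 3 natural killer cell markers averaged 8.04 and 7.31 with spermidine and 7.92 and 7.39 in control. Their mean was raised by Eomes, at 13.22 and 11.82 with spermidine and 13.57 and 12.46 in control. Ncr1 lay below background in both groups, and Klrb1c had 7.05 and 6.69 with spermidine and 7.13 and 6.38 in control. Both platelet markers, Pf4 and Ppbp, lay below background and averaged 4.76 and 5.75 with spermidine and 3.86 and 4.55 in control. The hybridisation spike-ins, transcripts added to the samples, averaged 7.98 and 8.15 with spermidine and 7.67 and 7.58 in control. The part of these differences in the results that follow was not tested.

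Most mitochondrial ribosomal protein genes had a lower mean with spermidine, by small amounts. The difference was below 0 in 59 of 76 members (77.6%) and above 0 in 17, with a median of -0.19; over all genes 51.1% were below 0 with a median of -0.01, and over the 8357 genes at or above background 54.5% with a median of -0.03. The middle of the members, between the lower and upper quartile, ran from -0.37 to -0.04, and the whole range from -0.97 for Mrps36 to 0.48 for Mrpl17. No member passed the test: 0 of 76 had an adjusted p under 0.05 (limma, Benjamini-Hochberg over all features), as did 0% of the 22206 features, and the members' adjusted p ran from 0.637 to 0.997. At an unadjusted p under 0.05 there were 5 members, all lower, where 3.73% of all genes were lower and 3.31% higher at that threshold, and 5.36% and 3.47% of genes at or above background. Standard errors of the members' differences ran from 0.22 to 0.39, and 4 members (Mrpl14, Mrpl22, Mrpl36 and Mrpl54) lay below background in both groups. In bulk RNA, fewer cells of a type and less RNA per cell cannot be told apart.

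**Figure D1:**
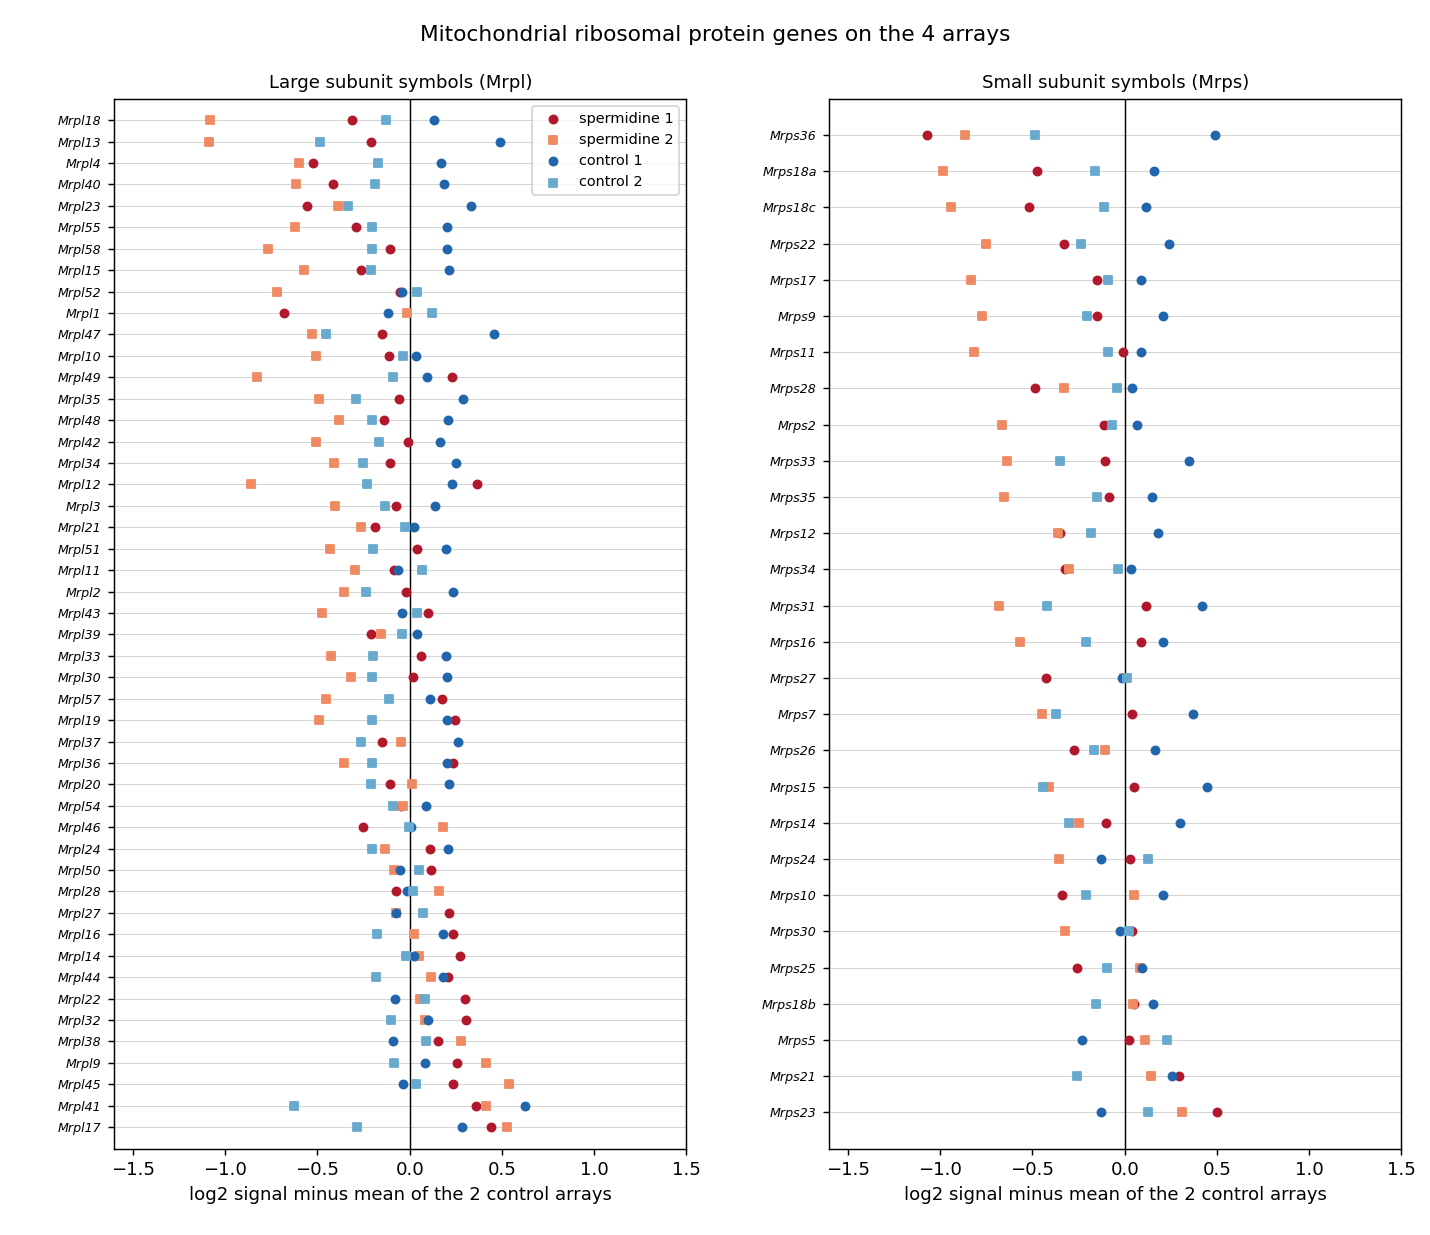
Log2 signal of each member on the 4 arrays, minus the mean of its 2 control arrays (x axis), with members (y axis) ordered by the difference between the groups; circles are replicate 1 and squares replicate 2, red for spermidine and blue for control. Control 1 was the highest of the 4 arrays in 48 of 76 members and spermidine 2 the lowest in 44.

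Both spermidine arrays lay below both control arrays in 20 members (26.3%), and above them in 6 (7.89%); over all genes these shares were 18.6% and 18.3%, and over genes at or above background 22.5% and 19%. In the other 50 members the groups overlapped. The 20 lower ones were Mrps36, Mrps18a, Mrps18c, Mrpl18, Mrpl4, Mrps22, Mrpl40, Mrps17, Mrpl23, Mrpl55, Mrpl15, Mrps28, Mrps2, Mrpl52, Mrps12, Mrps34, Mrpl10, Mrpl21, Mrpl11 and Mrpl39, with differences between -0.97 and -0.18. The 6 higher ones were Mrpl17, Mrps23, Mrpl45, Mrpl9, Mrpl38 and Mrpl14, with differences between 0.16 and 0.48. Of the 50 that overlapped, 39 had a lower and 11 a higher mean, between -0.65 for Mrpl13 and 0.39 for Mrpl41. Mrpl13 stood at 9.81 and 8.93 with spermidine and at 10.51 and 9.53 in control, and Mrpl41 at 6.85 and 6.90 with spermidine and at 7.12 and 5.87 in control, so that in both genes the gap between the control arrays exceeded the difference. These 2 genes were singled out after their values were seen.

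Over the members, the median gap between the arrays of one group exceeded the size of the median difference between the groups. A gap is taken between single arrays and a difference between means of 2 arrays. Control 1 was above control 2 in 61 of 76 members (80.3%), with a median gap of 0.33, and spermidine 1 was above spermidine 2 in 55 (72.4%), with a median gap of 0.27. Over genes at or above background the shares were 62.0% and 61.6%, with median gaps of 0.10 and 0.11. Each member's signal was set against its own mean over the 4 arrays, and the median of these values over the members was 0.08 and -0.26 in spermidine arrays 1 and 2, against 0.26 and -0.04 in control arrays 1 and 2. By this measure spermidine 1 lay above control 2, so the groups overlapped. The median difference of -0.19 was -0.36 without spermidine 1, -0.07 without spermidine 2, -0.03 without control 1 and -0.36 without control 2. The count of members with a lower mean was 57, 44, 44 and 64 in the same order. In both groups replicate 1 was the higher array by these medians, and leaving out 1 array leaves the replicate numbers uneven between the groups. The part of this in these shifts was not tested.

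**Figure D2:**
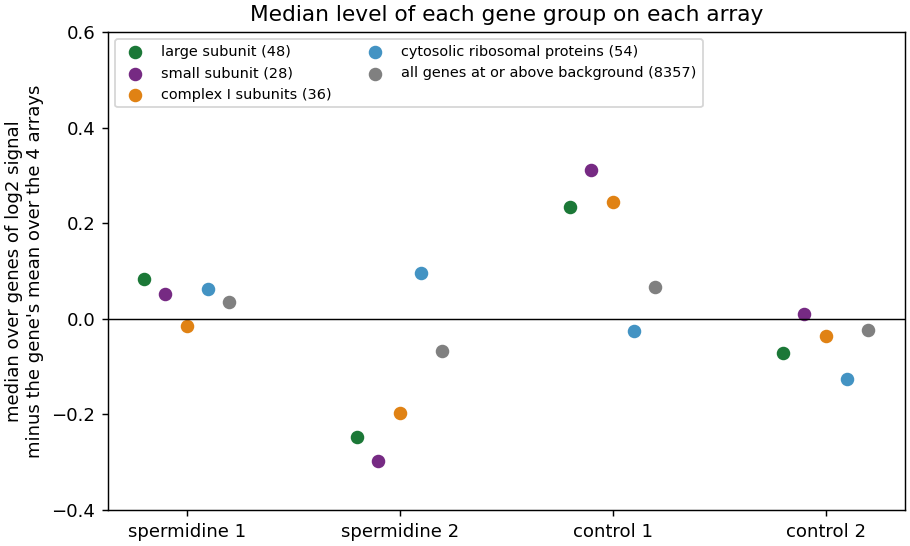
Median over the genes of a group of the log2 signal minus each gene's own mean over the 4 arrays (y axis), for each array (x axis) and 5 gene groups given in the legend with their numbers. The large and small subunits were lowest in spermidine 2 (-0.25 and -0.30) and highest in control 1 (0.23 and 0.31).

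The small subunit had the lower median. Its 28 members had a median difference of -0.26, with 24 below 0. Without overlap, 9 of them lay below control (32.1%) and 1 above (3.57%). The 48 members of the large subunit had a median of -0.19, with 35 below 0. Without overlap, 11 of them lay below control (22.9%) and 5 above (10.4%). Over genes at or above background these shares were 22.5% and 19%, so the lower share of the large subunit was near that of all such genes. The difference between the 2 medians was 0.07, and it was between 0.03 and 0.17 when 1 array was left out. Mrps30 and Mrps18a belong to the large subunit in the structures despite their symbols, and Mrps36 has been assigned to the 2-oxoglutarate dehydrogenase complex of the citrate cycle in place of the ribosome. With these 3 placed accordingly, the medians were -0.24 for the small subunit and -0.19 for the large one, 0.05 apart. Members counted here as taking the place of a bacterial ribosomal protein (43) and the other members (32, without Mrps36) both had a median of -0.19, with 33 and 25 below 0. Mrpl55 and the S18 homologues Mrps18a and Mrps18b were counted with the other members.

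**Figure D3:**
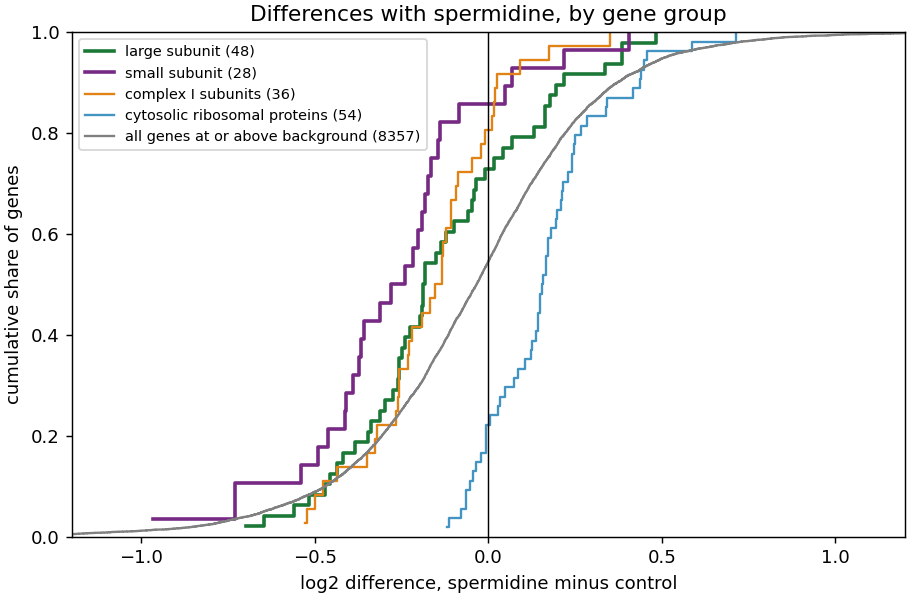
Cumulative share of genes (y axis) by log2 difference, spermidine minus control (x axis), for the large subunit, the small subunit, complex I subunits, cytosolic ribosomal proteins and all genes at or above background. The small subunit curve, with a median of -0.26, lies left of the curve of all genes at or above background (median -0.03), and the cytosolic ribosomal proteins (median 0.16) lie to its right.

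In the small subunit, Mrps36 had the largest difference of all members. Its signal was 7.75 and 7.96 with spermidine and 9.31 and 8.33 in control, a difference of -0.97 ± 0.33 (SE; 2 of 2 spermidine arrays lower; limma adjusted p = 0.639). The control arrays lay 0.98 apart, about as far as the groups, and the difference was -0.48 without control 1 and -1.45 without control 2.

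The 3 homologues of bacterial S18 differed in their values. Mrps18c, which takes the place of S18 on the platform of the small subunit, had 9.94 and 9.52 with spermidine and 10.58 and 10.35 in control (difference -0.73 ± 0.25, SE; limma adjusted p = 0.637). Mrps18a, which sits in the large subunit, had 9.02 and 8.51 with spermidine and 9.66 and 9.34 in control (-0.73 ± 0.26, SE; adjusted p = 0.663). In both, every spermidine array was below every control array, and the difference exceeded the gap between the arrays of either group. Mrps18b, the other homologue in the small subunit, had 10.87 in both spermidine arrays and 10.98 and 10.66 in control (0.05 ± 0.23, SE; adjusted p = 0.985), with the spermidine arrays inside the control range. Whether the 3 genes differ from each other in response was not tested. Without 1 array the differences ran from -0.94 to -0.52 for Mrps18c, from -0.99 to -0.48 for Mrps18a and from -0.11 to 0.20 for Mrps18b.

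**Figure D4:**
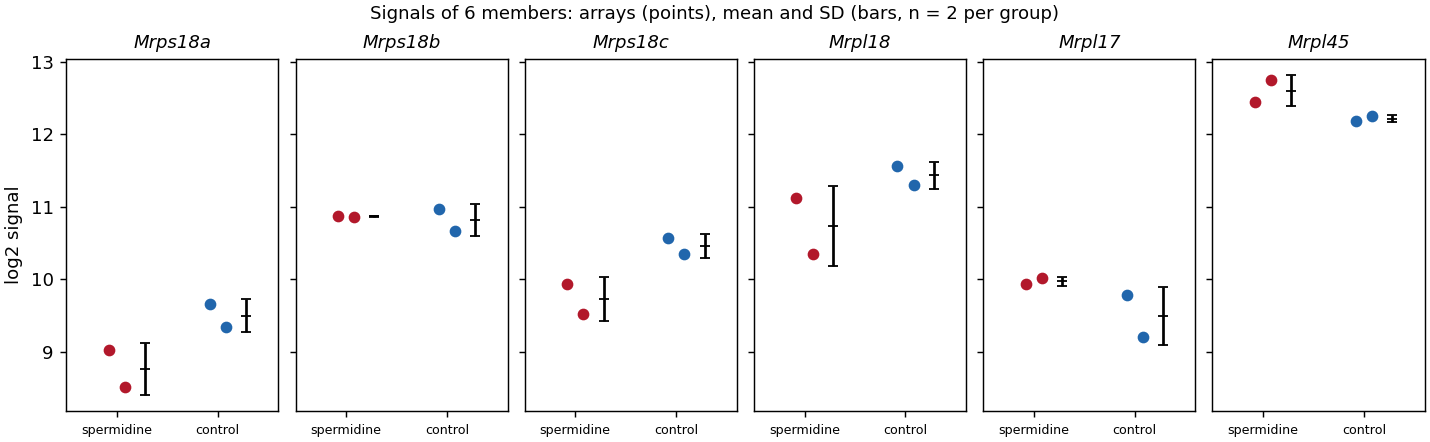
Log2 signal (y axis) of 6 members in spermidine and control arrays (points), with the mean and SD of each group (bars, n = 2). Spermidine arrays lie below control arrays in Mrps18a, Mrps18c and Mrpl18, within them in Mrps18b, and above them in Mrpl17 and Mrpl45.

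Among other small subunit genes, Mrps22, a mitochondria-specific protein, stood at 8.63 and 8.21 with spermidine and 9.20 and 8.73 in control (-0.54), and Mrps17, of the S17 family, at 9.23 and 8.55 with spermidine and 9.47 and 9.29 in control (-0.49, and -0.15 without spermidine 2). Mrps12, at the decoding centre, had 7.33 and 7.32 with spermidine and 7.86 and 7.50 in control (-0.36). In these 3 genes the groups did not overlap. The 7 members counted here as head proteins (Mrps7, Mrps9, Mrps10, Mrps14, Mrps31, Mrps33 and Mrps35) all had a lower mean, with a median of -0.28. In none of these 7 were the groups apart, and in each control 1 was the highest array. Mrps24 was counted with messenger RNA entry and decoding. It differed by -0.16, with control 2 the highest array. Dap3, a head protein with another symbol, is given with its list further on. Mrps23 was the small subunit gene with the highest difference, at 11.32 and 11.13 with spermidine and 10.69 and 10.94 in control (0.40 ± 0.23, SE; limma adjusted p = 0.765); it was singled out after its values were seen. Mrps30 had 10.08 and 9.72 with spermidine and 10.02 and 10.06 in control (-0.14), which overlapped.

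In the large subunit, Mrpl18, a protein of the central protuberance, had 11.12 and 10.35 with spermidine and 11.56 and 11.31 in control (-0.70 ± 0.30, SE; limma adjusted p = 0.706). The spermidine arrays lay 0.77 apart, more than the groups, and the difference was -0.31 without spermidine 2. Mrpl4, of the L4 family, stood at 8.04 and 7.96 with spermidine and 8.74 and 8.39 in control (-0.56 ± 0.23, SE; adjusted p = 0.706), with close spermidine arrays below both control arrays. Mrpl40, also of the central protuberance, had 9.18 and 8.98 with spermidine and 9.79 and 9.41 in control (-0.52). Mrpl58, a peptidyl-tRNA hydrolase built into the same region, overlapped at 11.31 and 10.64 with spermidine and 11.61 and 11.21 in control (-0.44). Of the 7 genes counted here at the central protuberance, 5 had a lower mean, with a median of -0.26, and Mrpl38 was above control without overlap.

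The stalk, which recruits translation factors to the ribosome, had lower means in 4 of 4 genes, where 77.6% of all members had a lower mean. Mrpl10, which carries Mrpl12, had 8.23 and 7.84 with spermidine and 8.38 and 8.31 in control (-0.31), and Mrpl11 had 8.86 and 8.65 with spermidine and 8.88 and 9.01 in control (-0.19), both without overlap. Mrpl12, the mobile stalk protein, varied more than this within the groups, at 10.01 and 8.79 with spermidine and 9.88 and 9.42 in control (-0.25). Its difference was 0.36 without spermidine 2 and -0.86 without spermidine 1. Mrpl54 differed by -0.04 and lay below background in both groups.

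Around the exit of the peptide tunnel the 6 genes were split, with 3 lower and 3 higher means and a median of 0.08. Mrpl17 had 9.93 and 10.02 with spermidine and 9.78 and 9.21 in control, which gave the highest difference of all members (0.48 ± 0.26, SE; 2 of 2 spermidine arrays higher; limma adjusted p = 0.752). Mrpl45, which anchors the exit at the inner membrane, had 12.45 and 12.75 with spermidine and 12.18 and 12.25 in control (0.38 ± 0.23, SE; adjusted p = 0.785). Mrpl23 was on the other side, at 8.45 and 8.61 with spermidine and 9.34 and 8.67 in control (-0.47), and its difference was -0.14 without control 1. Mrpl24 was the member with the smallest difference, at 11.93 and 11.69 with spermidine and 12.03 and 11.61 in control (-0.01), followed by Mrpl50 at 10.71 and 10.51 with spermidine and 10.54 and 10.65 in control (0.02) and Mrpl46 at 6.15 and 6.58 with spermidine and 6.41 and 6.40 in control (-0.04). Mrpl55 had 7.76 and 7.43 with spermidine and 8.25 and 7.85 in control (-0.46), and Mrpl15 9.67 and 9.36 with spermidine and 10.14 and 9.72 in control (-0.42), both without overlap.

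Of the 76 members, 67 had a RefSeq promoter window, 3 of them more than 1. The ETS motif was in 12 of the 67 (17.9%), the NRF1 motif in 8 (11.9%) and the YY1 motif in 12 (17.9%); of the 15691 measured genes with a window, 5.88%, 4.10% and 3.64% held them, and of all 32851 windows 3.89%, 2.71% and 2.75%. No motif contains another, and 3 members held more than 1 of them. The 12 members with the ETS motif had a median difference of -0.23 with 11 below 0, and the 12 with the YY1 motif a median of -0.24 with 11 below 0. The 8 with the NRF1 motif (Mrpl9, Mrpl10, Mrpl17, Mrpl22, Mrpl32, Mrpl33, Mrpl39 and Mrps18b) had a median of 0.11 with 5 above 0, between -0.31 for Mrpl10 and 0.48 for Mrpl17. Of these 8, Mrpl22 lay below background in both groups. Without overlap, 2 of the 8 were lower and 2 higher, against 4 and 0 for ETS and 2 and 0 for YY1. Over all genes 18.6% were lower and 18.3% higher without overlap. Over all genes at or above background that held them, the medians were -0.03 for ETS, -0.03 for NRF1 and -0.003 for YY1. The difference between members with and without a motif was not tested. Of the genes for these factors, Nrf1 had 11.73 and 11.57 with spermidine and 12.25 and 12.12 in control (-0.53 ± 0.22, SE; limma adjusted p = 0.706), Gabpa 11.85 and 11.25 with spermidine and 12.03 and 11.76 in control (-0.34) and Gabpb1 10.85 and 10.04 with spermidine and 10.81 and 10.55 in control (-0.23). Yy1 had 12.69 and 12.59 with spermidine and 12.67 and 12.40 in control (0.10), and was added after its values were seen. Of these 4 genes the groups were apart in Nrf1 only. Over the 8 measured regulators of this kind the median was -0.12, with 0 called.

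Other genes of mitochondrial translation had medians between -0.14 and 0.01, and 0 of them passed over all features. These medians moved when single arrays were left out. Without control 1 they were -0.05 for ribosomal proteins under other names, 0.16 for translation factors, 0.06 for assembly and 0.14 for transcription and RNA processing, with the members at -0.03. Without spermidine 2 they were 0.01, 0.02, 0.11 and -0.01 in the same order, with the members at -0.07. Ribosomal proteins under other names thus fell below the members without control 1. The other lists given here stayed above the members in both fits. Of the 6 ribosomal proteins fixed under other names, 1 is Mrpl58 and 4 were measured, with a median of -0.14. Dap3, a head protein that binds GTP, had 11.43 and 10.89 with spermidine and 11.47 and 11.50 in control (-0.33, without overlap). Chchd1 differed by -0.25, Ptcd3 by -0.02 and Gadd45gip1 by 0.06. The 14 translation factors had a median of -0.09, with 9 below 0. Gfm2, the factor that splits the ribosome after termination, had 10.07 and 10.82 with spermidine and 10.04 and 9.69 in control (0.58 ± 0.30, SE; limma adjusted p = 0.745), Metap1d, which trims the first methionine, differed by 0.38, and Guf1 by -0.29. The 27 genes of ribosome assembly and ribosomal RNA modification had a median of -0.07 with 15 below 0. Their largest statistics were those of Gtpbp6 (0.45), Ybey (0.44, below background in both groups) and the pseudouridine synthase Rpusd4 (0.43).

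The 20 genes of mitochondrial transcription and RNA processing had a median of 0.01 with 9 below 0 and 11 above. Fastk, which codes for an RNA-binding protein, had 11.87 and 11.67 with spermidine and 12.73 and 12.28 in control (-0.74 ± 0.25, SE; limma adjusted p = 0.637), and Trmt10c, a subunit of the mitochondrial ribonuclease P, had 8.56 and 8.53 with spermidine and 9.42 and 9.05 in control (-0.69 ± 0.24, SE; adjusted p = 0.644). Every spermidine array was below every control array in both. The mitochondrial RNA polymerase gene Polrmt differed by 0.83 at signals below background in both groups, and by 0.35 without control 2. The 19 mitochondrial aminoacyl-tRNA synthetase and amidotransferase genes had a median of -0.03, with 10 below 0. Of the 19, 5 lay below background in both groups, and the median was lower without dim features, as given further on. Their largest statistics were those of Ears2 (0.55) and Pars2 (-0.45), both below background, and Rars2 (-0.64). In Rars2 the groups overlapped, and its difference ran from -1.17 to -0.12 without 1 array.

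Set beside the most similar gene groups, the members had a median on the same side of 0 as complex I and on the other side from cytosolic ribosomal proteins. Members, complex I and all genes at or above background shared 1 order of the arrays, with control 1 highest, then spermidine 1, control 2 and spermidine 2; for all genes at or above background the medians against each gene's own mean were 0.04 and -0.07 in spermidine arrays 1 and 2, against 0.07 and -0.02 in control arrays 1 and 2. The 36 genes counted as complex I subunits by their symbols had a median difference of -0.14 with 29 below 0. They include Ndufa4l2, below background in both groups, with the highest difference of the list (0.35). Without overlap, 11 of the 36 lay below control (30.6%) and 1 above (2.78%). Ndufs1 (-0.53), Ndufs7 (-0.52) and Ndufa4 (-0.50), which is now placed in complex IV, had their largest statistics. The 54 cytosolic ribosomal proteins had a median of 0.16, with 12 below 0. Without overlap, 2 of them lay below control (3.7%) and 32 above (59.3%), led by Rpl37a (0.71), Rpl36 (0.59) and Rps20 (0.46). Over genes at or above background these shares were 22.5% below and 19% above. Their list mean was 16.41 and 16.48 in the spermidine arrays and 16.33 and 16.23 in the control arrays, near the top of the scale. In both lists 0 genes passed over all features, and the difference between the groups of genes was not tested.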

How the data were processed

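RNA of the 4 cultures was measured on Clariom S Mouse arrays. The authors deposited log2 signals, 1 per feature. The submitters' processing notes name RMA and Affymetrix Expression Console; the log2 base was inferred from the values. RMA compresses differences of dim features. Of 28846 features, 6640 control features were left out and 22206 gene features were tested; 19572 had 1 gene symbol, 0 several and 2634 none. Spermidine was compared with control with limma 3.58.1 in R 4.3.3 (lmFit and eBayes, two-sided, Benjamini-Hochberg over all 22206 features, threshold 0.05), with 5.96 prior and 2 residual degrees of freedom and a median standard error of 0.246. The test was also run on simulated data with independent noise in each gene. Those data hold no shifts shared by many genes on an array, so the run cannot show how the test behaves under such shifts. Precision is limited by the number of arrays. With 2 arrays a group the smallest exact permutation p is 0.333, and no such test was run.

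The members and gene lists were chosen with earlier results of these data known. Named members were those with an unadjusted p under 0.05 and groups that did not overlap, then the largest non-overlapping differences up to 12, the 3 smallest differences, and members fixed by role; in other lists the 3 largest statistics were named. Lists are described by counts and medians; mitochondrially encoded genes were not analysed here. Promoter windows came from RefSeq (GRCm38.p6), matched by gene identifier. Alternatives were other priors, array weights, 3 further normalizations, 2 filters on dim features, subunits assigned by structure, the replicate number as a block, and leaving out each array.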

Additional observations from a re-analysis of the deposited data

How the results depend on the processing

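No member was called (adjusted p under 0.05, limma) under any alternative run, including the 4 fits without 1 array; at an unadjusted p under 0.05 there were 5. The median over all members was between -0.36 and -0.03 when 1 array was left out, that of the large subunit between -0.36 and -0.004, and that of the small subunit between -0.47 and -0.11. Members lower without overlap then numbered 24 to 50 and members higher 8 to 20, since 3 arrays separate more often. The 2 subunit medians were 0.07 apart, 0.10 after a further quantile normalization or cyclic loess, 0.053 with subunits by structure, and 0.030 to 0.17 without 1 array. Without 1 array, list medians ran from -0.23 to 0.16 for translation factors, -0.13 to 0.11 for assembly, -0.32 to 0.011 for ribosomal proteins under other names, -0.094 to 0.14 for transcription and RNA processing, -0.048 to 0.086 for aminoacyl-tRNA synthetases, -0.35 to -0.036 for complex I and 0.12 to 0.19 for cytosolic ribosomal proteins. The synthetase median was -0.16 among features at or above the median level and -0.17 among those at or above background. These filters drop dim genes from a list and leave the differences of the other genes as they were. Of the 19 synthetase genes, 5 lay below background in both groups. Members at or above background had a median of -0.21. The cytosolic ribosomal median was 0.22 after cyclic loess. The causes of the shifts under other settings were not tested. Mrpl24 turned to 0.047 after a further quantile normalization and 0.042 after cyclic loess. Without 1 array these differences crossed 0: Mrpl24 (-0.22 to 0.20), Mrpl50 (-0.083 to 0.12), Mrpl46 (-0.25 to 0.18), Mrps18b (-0.11 to 0.20), Mrps30 (-0.32 to 0.041), Mrpl12 (-0.86 to 0.36), Gadd45gip1 (-0.31 to 0.44), Guf1 (-0.64 to 0.065) and Gabpb1 (-0.63 to 0.17). Deviations of arrays with the same replicate number correlated at 0.210 over features, but nothing in the labels says that the numbers pair cultures. With the number as a replicate block 0 members and 1 of all features passed, against 0 of all features without it. At an unadjusted p under 0.05 (limma) there were 2350 features with the block and 1558 without it.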

Other observations

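Some mitochondrial ribosomal protein genes start close to another gene on the opposite strand. The share of all genes with such a neighbour was not taken. In the RefSeq windows (GRCm38.p6), 26 of the 67 members with a window had such a head-to-head neighbour whose start lay at most 1000 bases away, and for 23 of them the neighbour was measured. The neighbours had a median difference of -0.07, and 0 passed over all features (limma). Of the neighbours, 13 of 23 were below 0, where 51.1% of all genes and 54.5% of genes at or above background were. In 13 of 23 pairs member and neighbour differed in the same direction. Mrpl46 and Mrps11 are such a pair, 42 bases apart and counted once from each side: Mrps11 had 9.82 and 9.01 with spermidine and 9.92 and 9.74 in control (-0.41), and Mrpl46 differed by -0.04. Mrpl57 (-0.14) starts 76 bases from Ska3, a gene of chromosome segregation, which had 8.08 and 7.64 with spermidine and 8.82 and 8.58 in control (-0.84 ± 0.25, SE; limma adjusted p = 0.637). Mrpl18 (-0.70) starts 238 bases from Tcp1, a chaperonin subunit (-0.45), and Mrpl40 (-0.52) 113 bases from the histone chaperone gene Hira (0.23). These pairs were chosen after their values were seen.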
